A study of Mus musculus with 8 samples.

Results

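The genes described here are markers of immune cells, measured in whole liver. The list holds 39 genes that are known to be used by macrophages, neutrophils, T cells, B and plasma cells and natural killer (NK) cells. They were chosen with earlier results of these data known, and their probes were taken by gene symbol. Of these, 38 have a probe on the array, out of 19896 named genes and 36169 features in all; the T cell kinase gene Lck was not analysed here. There are 36 members read by 1 probe, while S100a8 and S100a9 have 2 each, and 5 members were found under an older symbol, such as Emr1 for Adgre1.

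RNA came from livers of 3 mice labelled as Me1-/- (cytosolic malic enzyme knockout, named Mod1 in the labels) and of 5 wild-type littermates. Each liver was hybridised on a 2-colour array against one reference, liver RNA pooled from 5 wild types, so a value is a log2 ratio of that mouse to the pool and carries no level. The sources used here do not give strain, age, sex, diet or the part of the gene that was removed. The mice are numbered 14, 15, 21, 22 and 26 (wild type) and 27, 31 and 33 (knockout), and each comparison sets the 3 knockouts against the 5 wild types. Since all members are read in bulk tissue, fewer cells of a type and less RNA per cell cannot be told apart, and because ratios carry no level, the tissue label could not be checked against hepatocyte markers.

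The labels were first set against the targeted gene. Me1 had log2 ratios of 0.82, -0.64, -0.70, -1.73 and 0.70 in the wild types, in the order above, and 0.82, -0.81 and -0.68 in the knockouts. The groups overlapped fully, and an exact two-sided permutation test gave p = 0.875 (smallest possible 0.0179). Whether the 1 probe lies in the altered part of the gene is not known, so its values check nothing about the labels. The arrays differed in their spread over all probes, with an SD of 0.127 to 0.291 in the wild types (highest in mouse 22) and 0.185 to 0.273 in the knockouts (highest in mouse 33). The direction of the ratio is inferred: over the 300 probes that varied most among the wild types, the mean linear ratio, which should lie near 1 against a pool of such mice, had a median of 0.999 when read as log10 of mouse over pool, 1.33 as pool over mouse and 0.968 as log2. That check does not reach the knockout arrays, and 3 pairs of arrays correlated below -0.3 over all probes (wild-type mouse 14 with 22 and with knockout mouse 33, and wild-type mouse 22 with 26). The direction of the knockout arrays is therefore not settled, and counts are also given with their sign turned.

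The liver holds the largest pool of resident macrophages in the body, the Kupffer cells, which sit in the sinusoids and take up particles, complement-coated microbes and aged red cells. Monocytes and neutrophils reach the liver with the blood, and T, B and NK cells lie along the sinusoids and around the portal tracts. Kupffer cells are known by surface receptors such as Clec4f and by the complement protein C1q, neutrophils by granule proteins, and lymphocytes by the signalling chains of their antigen receptors.

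After Benjamini-Hochberg adjustment over the whole array, no member passed 0.05 in limma, and the lowest adjusted p was 0.416, of Mrc1. Across all features 10 passed, which is 0.0276% (0.0138% in each direction). At an unadjusted p under 0.05, 10 of 38 members passed, beside 9.28% of all features; 5 were higher and 5 lower in the knockout. In the same direction 4.26% of all features passed as higher and 5.02% as lower, against 13.2% of the members each way. Among the 19896 named genes, to which all members belong, 3.95% passed as higher and 7.38% as lower. The 5 higher were the macrophage receptor gene Mrc1, the integrin gene Itgam, the T cell coreceptor gene Cd4 and the B lineage genes Cd79a and Jchain. The 5 lower were the macrophage genes Lgals3 and Mpeg1 and the neutrophil genes Camp, Ngp and S100a8. Just inside that threshold lay S100a8, at a log2 difference of -0.32 ± 0.13 (SE), and just outside it Cd79b, at 0.34 ± 0.17. Without wild-type mouse 14 there were 3 higher and 2 lower, without knockout mouse 31 there were 1 and 4, and without knockout mouse 33 there were 3 and 4. Leaving out wild-type mouse 15 or knockout mouse 27 cut the lower ones to 2. With the knockout arrays turned in sign, 4 members stood higher and 5 lower (5.96% and 5.52% of all features), all of them among the same 10 and each in the opposite direction. This reversal was largely fixed in advance, because the wild types lie near the wild-type pool on average.

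**Figure D1:**
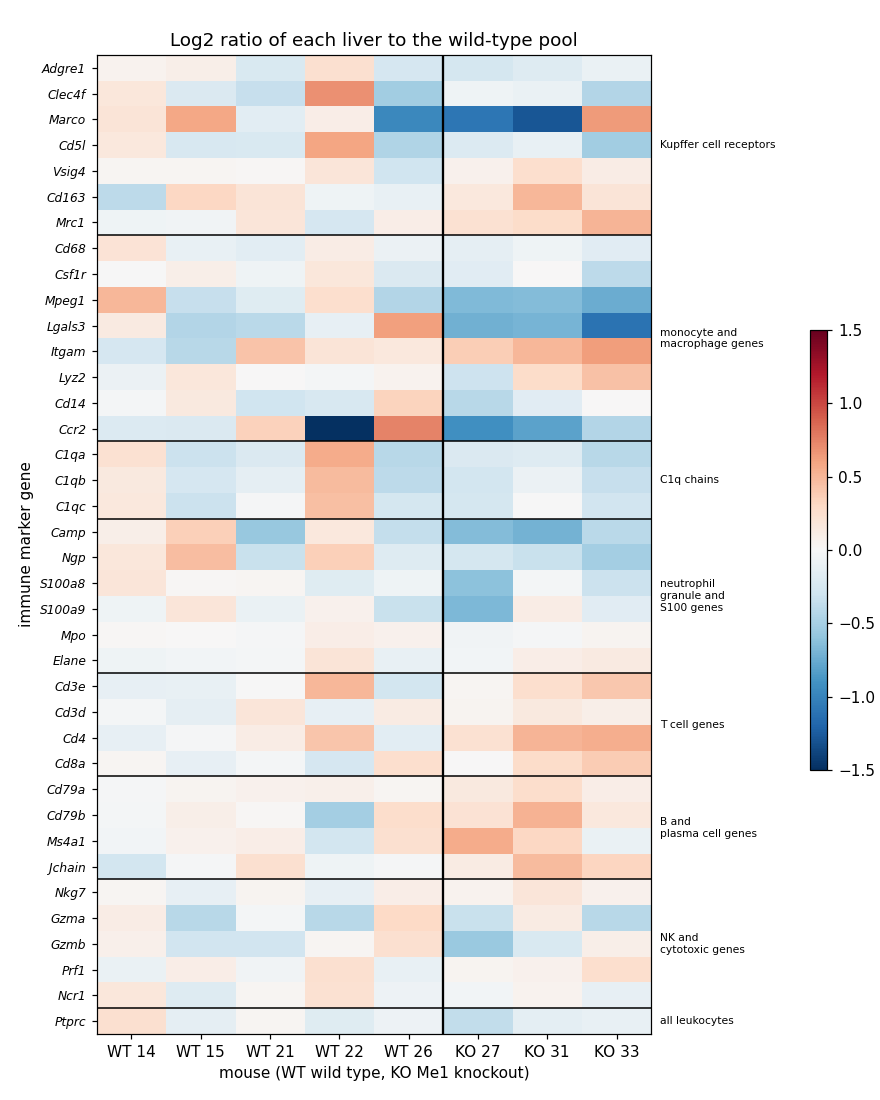
Log2 ratio of each liver to the wild-type pool (colour, from -1.5 to 1.5) for the 38 immune markers in rows, ordered by role, and the 8 mice in columns, with the knockouts right of the line. The lowest value is Ccr2 in wild-type mouse 22 (-1.49), and the 3 C1q chains share 1 pattern across the mice.

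The genotypes did not overlap in 4 of 38 members, against 7.21% of all features. Mrc1 and Cd79a lay above every wild type (4.35% of all features did so) and Mpeg1 and Lgals3 below (2.85%). In all, 16 members had a positive and 22 a negative difference, with a median of -0.12, beside a median of 0.01 over all features. By lineage, all 8 T and B cell genes were positive, while 3 of 5 NK and cytotoxic genes and 18 of 24 myeloid genes were negative. Over all 36169 features, 20013 were positive and 16156 negative. Of those 8, 3 passed the unadjusted threshold, all higher; of those 24, 2 passed as higher (Mrc1 and Itgam) and 5 as lower. With the knockout arrays turned in sign, all 8 T and B cell genes were negative (0 passed as higher and 3 as lower) and 17 of 24 myeloid genes positive (4 higher and 2 lower). Of the NK and cytotoxic genes 3 were then positive, and over all features 14452 were positive and 21717 negative. The difference between the lineages was not tested.

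**Figure D2:**
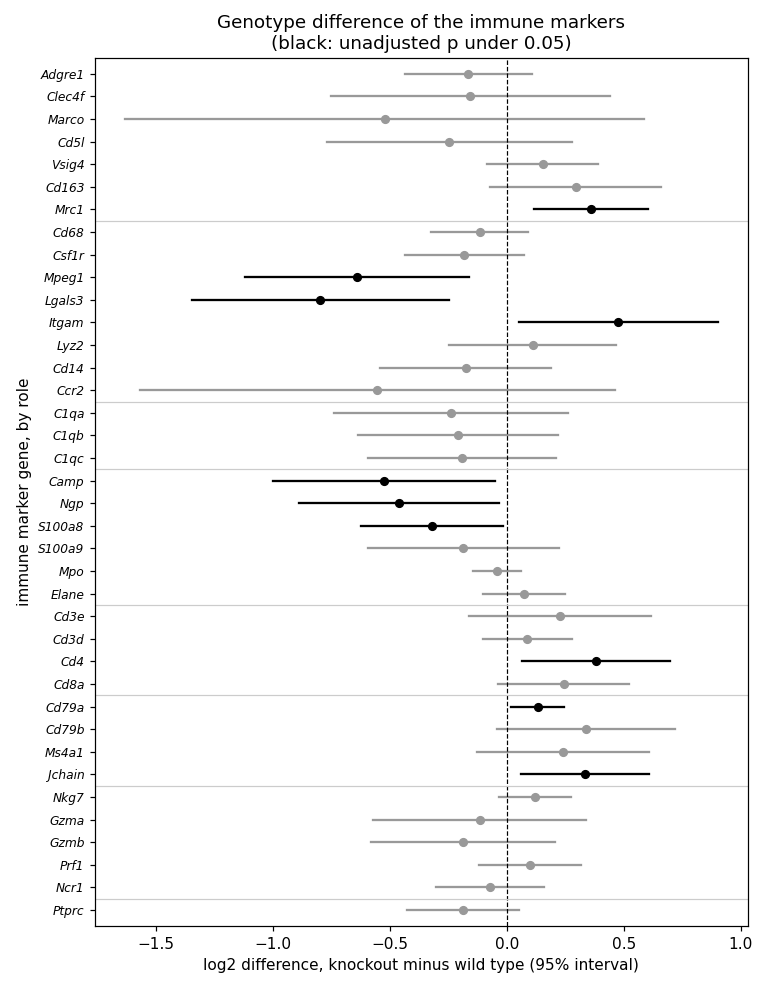
Log2 difference, knockout minus wild type, with its 95% confidence interval from limma (x axis) for each of the 38 immune markers (y axis, grouped by role). Black marks the 10 members at an unadjusted p under 0.05, from Lgals3 at -0.80 to Itgam at 0.48; no member passed after adjustment over all features.

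Among the genes of Kupffer cells, the 3 chains of C1q, the lectin gene Clec4f and Cd5l were highest in the same livers. C1qa, C1qb and C1qc encode the chains that assemble into the recognition protein of the classical complement pathway, and they lie in 1 cluster on chromosome 4. Clec4f encodes a C-type lectin that marks Kupffer cells in mice, and Cd5l a scavenger receptor-like protein that macrophages secrete. The sequences around the start of transcription are shown for the 4 of these genes that RefSeq's table holds on GRCm38.p6, from 250 bases before to 50 after the start, since these genes varied together across the livers. They lie at chr4:136886151-136886450 (C1qb, minus strand), chr4:136892865-136893164 (C1qc, minus strand), chr6:83656067-83656366 (Clec4f, minus strand) and chr3:87357631-87357930 (Cd5l, plus strand), and are written 5′ to 3′ on the strand of the gene. Capitals mark GAGGAA or its reverse complement TTCCTC, letters bound by PU.1, the factor that Spi1 encodes in myeloid and B cells.
C1qb: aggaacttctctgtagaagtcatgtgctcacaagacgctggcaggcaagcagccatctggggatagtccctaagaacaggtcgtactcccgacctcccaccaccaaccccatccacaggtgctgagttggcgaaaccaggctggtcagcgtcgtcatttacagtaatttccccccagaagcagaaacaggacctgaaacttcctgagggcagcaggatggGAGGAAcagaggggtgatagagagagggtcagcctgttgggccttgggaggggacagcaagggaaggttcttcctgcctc
C1qc: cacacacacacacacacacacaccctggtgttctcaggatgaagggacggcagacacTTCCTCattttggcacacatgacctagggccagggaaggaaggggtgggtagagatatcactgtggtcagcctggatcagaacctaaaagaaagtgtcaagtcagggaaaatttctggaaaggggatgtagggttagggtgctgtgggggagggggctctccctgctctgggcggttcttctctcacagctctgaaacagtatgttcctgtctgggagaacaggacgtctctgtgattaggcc
Clec4f: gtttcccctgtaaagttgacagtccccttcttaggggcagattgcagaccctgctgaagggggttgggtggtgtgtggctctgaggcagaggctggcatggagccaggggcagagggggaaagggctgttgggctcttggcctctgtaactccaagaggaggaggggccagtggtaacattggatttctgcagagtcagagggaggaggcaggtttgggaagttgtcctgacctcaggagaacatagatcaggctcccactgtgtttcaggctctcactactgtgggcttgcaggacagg
Cd5l: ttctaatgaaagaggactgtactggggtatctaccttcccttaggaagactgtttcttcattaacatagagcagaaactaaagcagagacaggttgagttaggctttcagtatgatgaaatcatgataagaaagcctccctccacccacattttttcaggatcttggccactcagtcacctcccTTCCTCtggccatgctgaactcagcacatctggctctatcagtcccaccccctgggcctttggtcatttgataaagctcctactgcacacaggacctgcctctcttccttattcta
These letters occur once each in the C1qb, C1qc and Cd5l windows and not in that of Clec4f, on the forward strand in C1qb and on the reverse in C1qc and Cd5l. They are common: 28.3% of all 32851 promoter windows in the table hold them, and 18 of 33 windows of the 31 members in the table (54.5%). A match of 6 letters is a description of the sequence and not a binding site.

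C1qa had log2 ratios of 0.23, -0.33, -0.22, 0.56 and -0.41 in the wild types, again from mouse 14 to mouse 26 by number, and -0.21, -0.19 and -0.42 in the knockouts from mouse 27 to 33. C1qb stood at 0.15, -0.25, -0.13, 0.48 and -0.40 in the wild types and at -0.28, -0.09 and -0.35 in the knockouts. C1qc stood at 0.16, -0.32, -0.02, 0.46 and -0.26, and at -0.26, -0.01 and -0.29. For all 3 chains, wild-type mouse 22 was highest, mouse 14 came next, and the other 6 mice lay below 0, so the knockouts lay inside the wild-type range, except mouse 33 in C1qa, which was lowest by less than 0.01. Clec4f had values of 0.17, -0.22, -0.35, 0.69 and -0.52 in the wild types and -0.07, -0.10 and -0.43 in the knockouts. Cd5l had 0.16, -0.24, -0.23, 0.59 and -0.45, and -0.20, -0.12 and -0.52. The order was thus the same at the top, mouse 22 and then mouse 14, on 3 different chromosomes. The sign pattern, above 0 in wild-type mice 14 and 22 and below 0 in the other 6, was found in 7 of 38 members (these 5, the lysosomal glycoprotein gene Cd68 and Mpeg1) and in 0.785% of all features; it was picked after its values were seen and is a description.

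The partner chains of known protein complexes were compared across the 8 mice in 6 pairs, with exact permutation tests adjusted over the 6. C1qa and C1qb correlated at Pearson r = 0.981 (permutation p = 7.94e-04, adjusted 0.00476) and Spearman rho = 0.905 (permutation p = 0.00456, adjusted 0.0274). C1qa and C1qc gave r = 0.945 (permutation p = 0.00293, adjusted 0.00585) and rho = 0.833 (permutation p = 0.0154, adjusted 0.0461). C1qb and C1qc gave r = 0.971 (permutation p = 0.00194, adjusted 0.0058) and rho = 0.786 (permutation p = 0.0279, adjusted 0.0559). Without wild-type mice 14 and 22, the 2 farthest from the median, r was 0.850, 0.694 and 0.843, and with the genotype means removed it was 0.978, 0.936 and 0.966. For the other complexes the correlation did not pass the test. S100a8 with S100a9 gave r = 0.704 and rho = 0.524 (permutation p = 0.0948 and 0.197, adjusted 0.142 and 0.295), and r was -0.06 without knockout mice 27 and 33. The S100a9 value in this pair is the mean of 2 probes that disagreed, as described below. The pair was not tested probe by probe, so the result does not decide whether these partners vary together. Cd79a with Cd79b, the signalling chains of the B cell receptor, gave r = 0.527 and rho = 0.452 (permutation p = 0.137 and 0.268, adjusted 0.165 and 0.321), and r was 0.00796 without wild-type mouse 14 and knockout mouse 31. Cd3e with Cd3d, chains of the T cell receptor complex, gave r = -0.12 and rho = -0.05 (permutation p = 0.758 and 0.935, the same after adjustment), and r was 0.311 without wild-type mouse 22 and knockout mouse 33. All ratios share the pool, so the mice are not fully independent points.

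**Figure D3:**
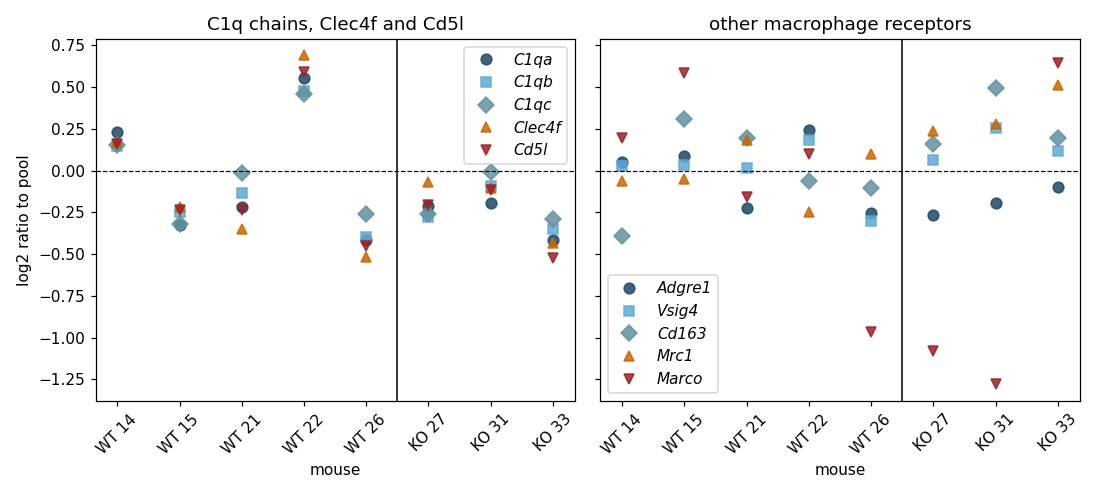
Log2 ratio to the pool (y axis) in each mouse (x axis, knockouts right of the line) for the C1q chains, Clec4f and Cd5l (left) and for 5 other macrophage receptor genes (right), 1 marker per gene and mouse. The genes on the left peak together in wild-type mouse 22 (0.46 to 0.69), while Marco on the right lies near -1 in wild-type mouse 26 and knockout mice 27 and 31.

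The genotype differences of these 5 genes were smaller than the spread between wild-type mice. They ran from -0.16 ± 0.26 (Clec4f) to -0.25 ± 0.23 (Cd5l), and their wild-type SDs from 0.317 to 0.483. Without wild-type mouse 22 the differences were 0.03 (Clec4f), -0.09 (Cd5l), -0.09 (C1qa), -0.08 (C1qb) and -0.08 (C1qc). The 95% confidence interval of C1qa ran from -0.74 to 0.26, so either direction lay within the error. Wild-type mouse 22, highest in all 5, also had the widest array, and it gave the highest value of the 8 mice in 22.8% of all features and in 11 of 38 members. Red blood cell genes were high in that mouse too, with a median of 0.35 over 8 genes, against -0.19 to 0.04 in the other wild types and -0.25 to -0.10 in the knockouts. Whether blood content or array width takes part in the pattern was not tested.

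Other receptors of liver macrophages, apart from Adgre1, followed orders of their own. Mrc1, the mannose receptor that macrophages and sinusoidal endothelium use to clear glycoproteins, had values of -0.06, -0.05, 0.18, -0.25 and 0.10 in the wild types and 0.23, 0.28 and 0.51 in the knockouts. All knockouts lay above all wild types, by 0.36 ± 0.11 on the log2 scale or 1.28-fold (adjusted p = 0.416 in limma). Mrc1 passed the unadjusted threshold with each of the 8 mice left out in turn. Of 14 endothelial genes, 4 were higher and 2 lower at an unadjusted p under 0.05, among them the inhibitory Fc receptor gene Fcgr2b (0.44 ± 0.09), Kdr (0.21 ± 0.06) and Flt1 (0.24 ± 0.06), both receptors of vascular growth factor. Of the 14, 7 were negative, down to -1.01, the median was 0.02, and 2 passed as higher and 5 as lower with the sign turned. The median over the endothelial genes was -0.07 to 0.05 in the wild types and -0.05 to 0.11 in the knockouts, and the part of endothelial RNA in the Mrc1 value was not tested.

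Marco, a scavenger receptor of macrophages, showed levels far apart within each genotype. Its values were 0.19, 0.58, -0.16, 0.10 and -0.97 in the wild types and -1.08, -1.28 and 0.64 in the knockouts. Wild-type mouse 26 and knockout mice 27 and 31 thus lay about 1 log2 unit below the pool, and knockout mouse 33 was the highest of all. The difference of -0.52 ± 0.48 was within this spread; without knockout mouse 33 it was -1.13 and passed an unadjusted p of 0.05. Adgre1, a classical surface antigen of mouse macrophages, stood at -0.16 ± 0.12, and Vsig4, a complement receptor, and Cd163, which takes up haemoglobin, at 0.15 ± 0.10 and 0.29 ± 0.16. The intervals of these 3 all included 0. Adgre1 was highest in wild-type mouse 22 (0.24), like the C1q chains. It was also above 0 in wild-type mice 14 (0.05) and 15 (0.08) and below 0 in the other mice.

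Of 8 genes of monocytes and macrophages at large, 1 was higher and 2 were lower at the unadjusted threshold, with a median of -0.18. Lgals3, galectin-3, had values of 0.13, -0.44, -0.41, -0.13 and 0.61 in the wild types and -0.73, -0.69 and -1.11 in the knockouts. It was 1.74-fold lower in the knockout (log2 difference -0.80 ± 0.24, adjusted p = 0.42 in limma), with all knockouts below all wild types. Mpeg1, which encodes the pore-forming perforin-2 of phagocytes, had values of 0.50, -0.35, -0.19, 0.25 and -0.44 in the wild types and -0.66, -0.65 and -0.74 in the knockouts. Its difference was -0.64 ± 0.21 or 1.56-fold lower (adjusted p = 0.456 in limma), and the knockouts lay within 0.1 of each other while the wild types spread over nearly 1 log2 unit. Both genes passed the unadjusted threshold with each mouse left out in turn. They no longer passed without wild-type mouse 22 and knockout mouse 33 together (-0.68 and -0.54), nor after quantile normalization (-0.60 and -0.52).

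Itgam, the CD11b chain of the complement receptor CR3, went the other way. Its values were -0.25, -0.42, 0.42, 0.19 and 0.16 in the wild types and 0.37, 0.50 and 0.62 in the knockouts, so wild-type mouse 21 lay among the knockouts. The difference was 0.48 ± 0.19 (adjusted p = 0.508 in limma), and the unadjusted threshold was missed without wild-type mouse 14, knockout mouse 31 or knockout mouse 33. Cd68, the growth factor receptor gene Csf1r and the lipopolysaccharide coreceptor gene Cd14 stood at -0.12 ± 0.09, -0.18 ± 0.11 and -0.18 ± 0.16. Lyz2, lysozyme of myeloid cells, stood at 0.11 ± 0.16, with -0.32, 0.28 and 0.44 in knockout mice 27, 31 and 33 against a wild-type range of -0.09 to 0.17; without knockout mouse 27 its difference was 0.34 and passed the unadjusted threshold. Ptprc, the CD45 phosphatase of all leukocytes, had values of 0.24, -0.13, 0.03, -0.18 and -0.08 in the wild types and -0.37, -0.15 and -0.11 in the knockouts, a difference of -0.19 ± 0.10 whose interval ran from -0.43 to 0.05.

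Ccr2, the receptor that draws monocytes along Ccl2, varied more among the wild types than any other member. Its values were -0.21, -0.22, 0.35, -1.49 and 0.75 in the wild types, an SD of 0.845 that lay at the 99.5th percentile of all features, and -0.92, -0.80 and -0.44 in the knockouts. The knockouts lay below every wild type but mouse 22. The difference was -0.55 ± 0.44, and -0.88 without wild-type mouse 22, where it passed the unadjusted threshold. Its ligand Ccl2 had values of 0.34, -0.90, 0.21, -0.37 and 0.30 in the wild types and -1.33, -1.09 and -1.71 in the knockouts, a difference of -1.29 ± 0.30 or 2.45-fold lower (adjusted p = 0.32 in limma). The related ligand Ccl7 stood at -0.80 ± 0.19 (adjusted p = 0.327), and for both ligands all knockouts lay below all wild types.

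Further genes of the same cells were read from lists, whose counts stand beside 4.26% of all features higher and 5.02% lower, or 5.96% and 5.52% with the knockout arrays turned in sign. Of the 19896 named genes, 3.95% passed as higher and 7.38% as lower. With the sign turned, 1715 named genes passed as higher and 998 as lower. Of 30 further Kupffer cell and macrophage genes, 0 were higher and 5 lower at the unadjusted threshold in limma, 26 had a negative difference and the median was -0.28; none passed after adjustment, and with the sign turned 12 were higher and 0 lower. The fractalkine receptor gene Cx3cr1 stood at -0.42 ± 0.13, the receptor kinase gene Axl at -0.39 ± 0.16 and the integrin gene Itgax at -0.30 ± 0.12. The median over that list was -0.24, -0.17 and -0.35 in knockout mice 27, 31 and 33 and lay between -0.10 and 0.19 in the wild types. Of 25 genes of leukocyte recruitment, 0 were higher and 7 lower (9 and 2 with the sign turned), and besides Ccl2 and Ccl7 the list was led by the integrin gene Itgal (-0.42 ± 0.11). Of 23 leukocyte transcription factors and adaptors, 0 were higher and 7 lower (6 and 0 turned), led by Was (-0.29 ± 0.06) and Lcp2 (-0.37 ± 0.09), actin and signalling adaptors of blood cells, and Rac2 (-0.35 ± 0.11), a GTPase of blood cells.

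The neutrophil markers fell into sets that behaved differently. Camp, the cathelicidin of specific granules, had values of 0.09, 0.35, -0.56, 0.16 and -0.36 in the wild types and -0.66, -0.71 and -0.40 in the knockouts. Ngp, another granule protein, had 0.17, 0.47, -0.34, 0.36 and -0.20 in the wild types and -0.27, -0.33 and -0.51 in the knockouts. Both were highest in wild-type mice 15, 22 and 14 and low in 21 and 26; mouse 21 lay among the knockouts in both genes, and mouse 26 just above them. The differences were -0.53 ± 0.21 and -0.46 ± 0.19 (adjusted p = 0.508 and 0.517 in limma). Camp missed the unadjusted threshold without wild-type mouse 14, 15 or 22 or knockout mouse 27 or 31, and Ngp in all but the fits without wild-type mouse 21 or 26.

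S100a8 and S100a9 encode the 2 subunits of calprotectin, an abundant cytosolic protein of neutrophils. S100a8 had values of 0.19, 0.01, 0.03, -0.18 and -0.07 in the wild types and -0.62, -0.03 and -0.33 in the knockouts, so knockout mouse 31 lay within the wild-type range. The difference was -0.32 ± 0.13 (adjusted p = 0.523 in limma), and -0.17 without knockout mouse 27; the unadjusted threshold held only in the fits without wild-type mouse 22 or knockout mouse 31. The S100a9 mean stood at -0.19 ± 0.18, but its 2 probes disagreed. The first followed S100a8, with 0.15, -0.00299, 0.08, -0.24 and -0.16 in the wild types and -0.85, 0.06 and -0.38 in the knockouts, a difference of -0.36 ± 0.19. The second had -0.29, 0.36, -0.29, 0.38 and -0.51 in the wild types and -0.49, 0.17 and 0.05 in the knockouts, a difference of -0.02 ± 0.25, and like Camp and Ngp it was high in wild-type mice 15 and 22 and low in 21 and 26; unlike them it was also low in mouse 14. Which probe reads S100a9 faithfully is uncertain, since probe sequences were not used.

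**Figure D4:**
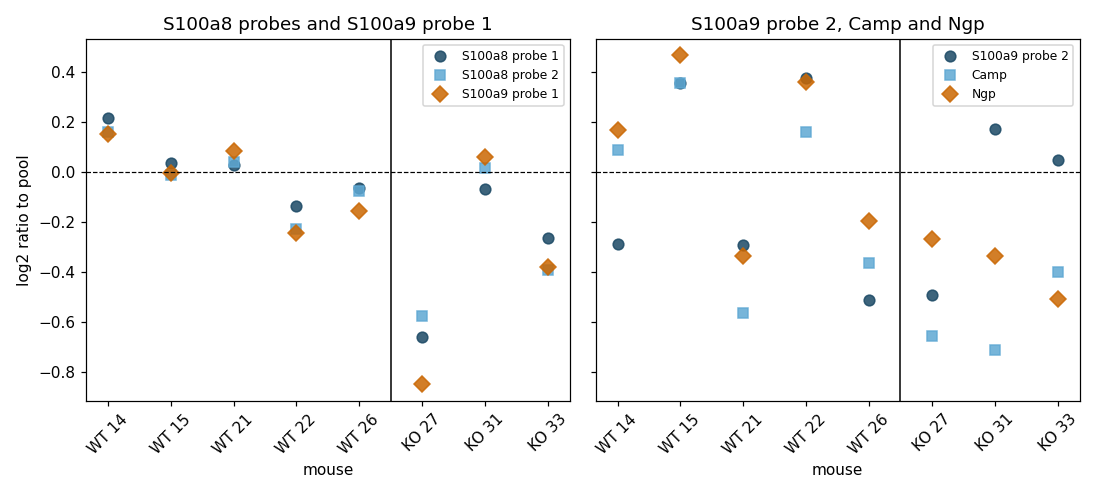
Log2 ratio to the pool (y axis) in each mouse (x axis, knockouts right of the line) for both S100a8 probes and the first S100a9 probe (left) and for the second S100a9 probe with Camp and Ngp (right). The 3 probes on the left run together, down to -0.85 in knockout mouse 27, while the second S100a9 probe reaches 0.36 and 0.38 in wild-type mice 15 and 22, where the first stands at -0.00299 and -0.24.

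Mpo and Elane, the peroxidase and elastase of primary granules that neutrophils make as precursors in the marrow, differed little between the genotypes. Mpo lay between -0.05 and 0.10 in all 8 mice (difference -0.04 ± 0.05), with a wild-type SD at the 13.1st percentile of all features. Elane lay between -0.12 and 0.19 (difference 0.07 ± 0.08), with a wild-type SD at the 56.2nd percentile. Spot brightness was not used here, so the narrow range of Mpo may be a steady level or a signal near background, which cannot be told apart. Of 19 further neutrophil genes, 0 were higher and 4 lower at the unadjusted threshold (6 and 1 with the sign turned), with a median of -0.09. Lcn2, which binds bacterial siderophores and is made by hepatocytes as well as neutrophils, led them at -1.79 ± 0.23 (adjusted p = 0.083 in limma). It was followed by the lectin receptor genes Clec4d (-0.47 ± 0.09) and Clec4e (-0.43 ± 0.11). For all 3, every knockout lay below every wild type.

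The 4 measured T cell genes were all positive in their difference (median 0.24), and 1 passed the unadjusted threshold. Cd4 had values of -0.12, -0.01, 0.11, 0.41 and -0.16 in the wild types and 0.23, 0.51 and 0.54 in the knockouts. Wild-type mouse 22 lay between the knockouts, and the difference was 0.38 ± 0.14 or 1.3-fold (adjusted p = 0.49 in limma); the call was lost without knockout mouse 31 or 33. Cd3e had values of -0.12, -0.11, -0.01, 0.50 and -0.27 in the wild types and 0.02, 0.25 and 0.40 in the knockouts, so the same wild-type mouse was the highest of all. Its difference was 0.23 ± 0.17, and 0.35 without wild-type mouse 22, which passed. Cd8a and Cd3d stood at 0.24 ± 0.12 and 0.09 ± 0.08. Wild-type mouse 22, high in Cd3e and Cd4, was the lowest wild type in Cd8a (-0.25) and low in Cd3d (-0.12), so the order of the mice differed between T cell genes.

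Further T cell genes were mixed in direction. Of 18, 1 was higher and 2 were lower at the unadjusted threshold (3 and 1 with the sign turned), with a median of 0.05. The adhesion receptor gene Cd2 stood at 0.25 ± 0.10 and the transcription factor gene Tcf7 at -0.32 ± 0.13. Themis, known for its part in T cell selection in the thymus, had values of 0.27, 0.23, -0.19, -1.05 and 0.26 in the wild types and -1.99, -1.30 and -2.79 in the knockouts. At -1.93 ± 0.40 or 3.82-fold lower (adjusted p = 0.295 in limma), with every knockout below every wild type, it went opposite to Cd3e and Cd4.

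The 4 B and plasma cell genes were positive as well, with a median of 0.29, and 2 passed the unadjusted threshold. Jchain, which joins the units of secreted IgA and IgM, had values of -0.28, -0.02, 0.24, -0.07 and -0.01 in the wild types and 0.12, 0.48 and 0.32 in the knockouts. The difference was 0.34 ± 0.12 (adjusted p = 0.485 in limma); wild-type mouse 21 lay above knockout mouse 27, and the call was lost without knockout mouse 31 or 33. Cd79a had values of -0.01, 0.04, 0.06, 0.08 and 0.03 in the wild types and 0.14, 0.27 and 0.10 in the knockouts. All knockouts lay above all wild types, but the difference was small, 0.13 ± 0.05 or 1.1-fold (adjusted p = 0.504 in limma). Its unadjusted call was lost without wild-type mouse 14, 15 or 26 or knockout mouse 31. The call was also lost with the trended robust prior, with separate variances and after leaving out the least variable features. The wild-type SD of Cd79a was 0.0352, at the 6th percentile of all features. As for Mpo, this narrow range may be a steady level or a signal near background, which cannot be told apart.

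The partner chain of Cd79a spread more widely among the wild types. Cd79b had values of -0.03, 0.09, 0.01, -0.50 and 0.26 in the wild types and 0.22, 0.53 and 0.16 in the knockouts, a difference of 0.34 ± 0.17. This was outside the unadjusted threshold. Ms4a1, the CD20 antigen, had -0.05, 0.06, 0.10, -0.28 and 0.25 in the wild types and 0.56, 0.31 and -0.10 in the knockouts, a difference of 0.24 ± 0.16 that was 0.42 and passed the unadjusted threshold without knockout mouse 33. In both, wild-type mouse 22 was lowest and mouse 26 the highest wild type. Of 19 further B and plasma cell genes, 3 were higher and 0 lower at the unadjusted threshold in limma, 15 had a positive difference and the median was 0.08; none passed after adjustment, and with the sign turned 1 was higher and 2 were lower. Xbp1, a factor of secretory cells that hepatocytes also use, stood at 0.55 ± 0.14, Fcrla, an intracellular Fc receptor-like gene of B cells, at 0.32 ± 0.08, and the B cell factor Spib at 0.11 ± 0.05.

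None of the 5 NK and cytotoxic genes passed the unadjusted threshold, and their median was -0.07. Gzma, granzyme A, had values of 0.11, -0.42, -0.02, -0.41 and 0.30 in the wild types and -0.33, 0.13 and -0.41 in the knockouts. Gzmb, granzyme B, had 0.07, -0.29, -0.29, 0.03 and 0.24 in the wild types and -0.56, -0.23 and 0.08 in the knockouts. Both spread as widely within a genotype as between them (differences -0.12 ± 0.20 and -0.19 ± 0.17). Perforin, Prf1, stood at 0.10 ± 0.09, the granule gene Nkg7 at 0.12 ± 0.07 and the NK receptor gene Ncr1 at -0.07 ± 0.10. The interval of Ncr1 ran from -0.30 to 0.16. Of 20 further genes of these cells, 1 was higher and 0 lower (1 and 1 with the sign turned), the higher one being the protease gene Ctsw at 0.16 ± 0.06, followed by the adaptor gene Tyrobp at -0.32 ± 0.15, which macrophages use as well.

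Immune markers varied among the 5 wild types more than most features. The median wild-type SD of the log2 ratio was 0.222 over the members and 0.106 over all features, and 25 of 38 members lay in the 25% of features with the largest SD. The widest were Ccr2 (0.845), Marco (0.577) and Clec4f (0.483). Those under the median of all features were 4, namely Cd79a, Mpo, Lyz2 and Nkg7.  The highest wild-type value was that of mouse 22 in 15 members, and the lowest that of mouse 26 in 14. Such counts among the wild types were not made over all features. Whether they are particular to immune markers was not tested. With the knockouts included, mouse 22 was highest in 11 of 38 members and in 22.8% of all features. Mouse 26 was then lowest in 7 members and in 16.2% of all features.

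**Figure D5:**
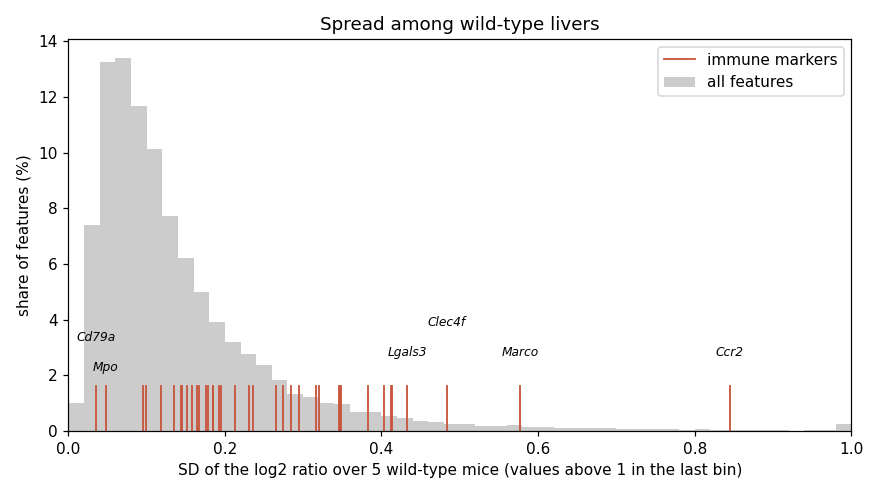
SD of the log2 ratio over the 5 wild-type mice (x axis) for all 36169 features (grey, share of features in percent) and for each of the 38 immune markers (red lines, whose height has no meaning); the last bin holds all features above 1. The markers reach from 0.0352 (Cd79a) to 0.845 (Ccr2), with a median of 0.222 against 0.106 for all features.

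Markers of other cells that a liver sample holds are given beside these results. Of 15 hepatocyte genes, 0 passed the unadjusted threshold in limma (0 higher and 2 lower with the sign turned), none passed after adjustment, and their median lay between -0.06 and 0.03 in the wild types and between 0.00 and 0.21 in the knockouts. Of 8 red blood cell genes 0 passed with either sign. Of 12 stellate cell and fibroblast genes 3 were lower (4 higher with the sign turned), the collagen genes Col1a2 (-0.83 ± 0.29), Col3a1 (-0.99 ± 0.39) and Col1a1 (-1.29 ± 0.52). The median over all 12 of these genes was -0.45 to 0.26 in the wild types and -0.33 to -0.06 in the knockouts. Of 9 dendritic cell genes 0 were higher and 1 lower (1 and 0 turned), and of 8 platelet genes 0 and 1 (2 and 0 turned). The lower dendritic cell gene was Itgax, already counted among the further macrophage genes. Some genes stand in more than 1 list, so the counts of the lists are not separate. Of 9 mast cell, basophil and eosinophil genes 4 were higher and 0 lower (0 and 3 turned), led by the tryptase gene Tpsb2 (0.30 ± 0.10). In that list of 9, 3 genes had a negative difference, down to -0.47, and the median was 0.10. Of 8 bile duct genes 1 was higher and 1 lower (3 and 1 turned), of 6 mesothelial genes 0 and 1 (2 and 1 turned), and of 7 adipocyte genes 0 and 1 (1 and 0 turned). The part of these cells in the values of the immune markers was not tested.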

How the data were processed

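Liver RNA of 3 knockout and 5 wild-type mice was measured on 2-colour arrays against a pool. The deposited values are log10 ratios of 39556 probes, 1 column per mouse; base and direction were inferred from the values. Dyes were swapped, per the labels; the sources used here do not give merging, background correction or normalization. Values were turned to log2, and probes of 1 symbol averaged. The platform annotation named 23283 probes, updated through RefSeq's GRCm38.p6 table (6594 by synonym); 16273 stayed unnamed and singly, giving 36169 features.

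Genotypes were compared in limma 3.58.1 (R 4.3.3; lmFit, eBayes) with p-values adjusted by Benjamini-Hochberg across features (threshold 0.05); the fit was tested on simulated data. Errors of differences are limma standard errors. Correlations used scipy 1.17.1. The number of arrays limits the precision. The members and lists were chosen with earlier results of these data known. Values of every mouse are given for members past an unadjusted p of 0.05 or with no overlap of the genotypes, and for the 2 of each role with the largest wild-type SD, with C1qc, Cd5l and S100a9 added; of other lists, at most 3 genes by p are named. Nothing in the labels pairs the genotypes or gives a batch. Alternatives covered the sign, centring, quantile scaling, single probes, a filter, array weights, the variance model, the pool as control and each mouse left out.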

Additional observations from a re-analysis of the deposited data

Results flagged for a closer look

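Elane in wild-type mouse 22 stood at 0.19, far from the other wild types, of which the nearest was -0.03. Over 39 genes tested (38 members and Me1), 1 was set apart in this way, and chance sets apart about 1 in 20.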

How the results depend on the processing

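The 10 features past adjusted p 0.05 became 16 with single probes, 17 without the least variable 25%, 207 with array weights, 19 without wild-type mouse 22 and knockout mouse 33 together, 76 for the knockouts against the pool, and 6 to 65 with 1 mouse left out (6 without wild-type mouse 14, 65 without 22, 18 without 26, 17 without knockout mouse 27). The count was 0 both in limma with a trended robust prior and in t-tests with separate variances. In these, 2844 and 3162 features had an unadjusted p under 0.05. Members higher at the unadjusted threshold, 5, became 10 with array weights, 2 with the trended prior, 3 with separate variances and 1 to 7 with 1 mouse left out. Members lower, 5, became 1 after quantile normalization, 3 with the trended prior, 2 without the 2 widest arrays and 2 to 4 with 1 mouse left out. No alternative brought a member past adjusted p 0.05 (lowest 0.0659, with array weights; single probes not counted). With the knockout arrays turned in sign, the called members stood at -0.33 (Mrc1), 0.73 (Mpeg1), 0.89 (Lgals3), -0.52 (Itgam), 0.65 (Camp), 0.28 (Ngp), 0.33 (S100a8), -0.47 (Cd4), -0.21 (Cd79a) and -0.28 (Jchain). Under the other 17 alternatives these 10 members kept their direction. Mrc1 passed the unadjusted threshold in all 17, Mpeg1 and Lgals3 in 15 each, and S100a8, with the fewest, in 8. The Me1 difference of 0.09 was -0.53 with array weights, -0.041 without the 2 widest arrays, -0.22 against the pool and -0.43 to 0.38 with 1 mouse left out (below 0 without wild-type mouse 21 or 22 or knockout mouse 27). The causes of these changes were not tested. The count of 25 members among the most variable 25% of features in the wild types was 23 to 28 in 7 alternatives, chosen after seeing the data. No paired analysis was possible because the mouse numbers are not shared between the genotypes. Spot signal over background was not used here, so which ratios rest on dim spots is unknown.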
